A study of Mus musculus with 9 samples.

Results

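Voltage-gated sodium channel subunit RNA was compared in 3 forebrain regions of the mouse. The 8 genes described were Scn1a, Scn2a, Scn3a, Scn8a and Scn9a, which encode pore-forming alpha subunits, and Scn2b, Scn3b and Scn4b, which encode beta subunits. They were chosen by symbol in the array's annotation, which gave 25 of the 45037 probe sets (groups of short oligonucleotides that read 1 transcript), and 8 of the 18193 genes with probe sets of 1 symbol. The regions were BNST (bed nucleus of the stria terminalis), NAc (nucleus accumbens, the ventral striatum) and dStr (dorsal striatum), with 3 samples each, labelled as biological replicates and each read on 1 Affymetrix Mouse430_2 array. The mice were briefly anaesthetised with isoflurane and carried no treatment or allele named in the labels. The labels used here do not give their strain, sex or age, or say whether the replicates came from separate animals, so the p-values measure the spread between these samples. The samples were punches of tissue from semi-frozen slices 300 µm thick, so each held all cell types of its region, and 10 ng of RNA was amplified in a repeated labelling cycle.

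An alpha subunit forms the voltage-gated pore that opens on depolarisation and carries the rising phase of the action potential. Beta subunits are single-pass membrane proteins with an immunoglobulin domain outside the cell, which alter gating, surface level and adhesion. In neurons the channels are concentrated at the axon initial segment and the nodes of Ranvier, where ankyrin-G and a specialised spectrin hold them. The principal neurons of the striatum are GABAergic spiny projection neurons, whereas the BNST belongs to the extended amygdala and holds a more varied set of mostly GABAergic neurons.

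The values are intensities on a linear scale, and no value lay below a common floor of 14.97, at which 2270 to 2698 probe sets per array stood. Array medians ran from 93.9 to 102. Arrays of 1 region correlated at r = 0.939 to 0.984 over probe sets, which are not independent replicates. BNST 1 and NAc 1 stood apart: BNST 1 correlated at 0.956 with BNST 2 and 0.962 with BNST 3 but at 0.973 with NAc 3, and NAc 1 at 0.956 with NAc 2 and 0.939 with NAc 3. Of 14 listed markers of striatal projection neurons, 12 were measured. Their summed intensity was 4447 to 9942 in BNST, 17651 to 25185 in NAc and 30996 to 33964 in dStr. Within BNST that sum was 9942 on BNST 1, 4447 on BNST 2 and 8103 on BNST 3. Pdyn, 1 of the 12, was highest in NAc, at a mean of 616 beside 305 in dStr and 268 in BNST. The marker lists were chosen with earlier results of these data known, so such sums are no independent check of the labels. A BNST list had 7 measured genes: Crh, Calb2, Calcr, Tac2, Nts, Zic1 and Esr1. They summed to 6412 to 7479 in BNST, 918 to 2186 in NAc and 441 to 805 in dStr. Between BNST and NAc 4 of 7 were higher in BNST, against 0.76% of all genes. Calcr, Nts and Esr1 did not pass there, and Calcr averaged 112 in BNST and 162 in NAc. Between BNST and dStr 6 of 7 were higher in BNST, against 4.94% of all genes.

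Of the 8 channel genes, 7 were bright enough to be tested, 4 of them differed among the regions, and each of those 4 was lower in BNST than in dStr. Scn4b had the largest difference of the 7, at 14.0-fold lower in BNST than in dStr and 6.42-fold lower in BNST than in NAc. Scn3a was 2.77-fold, Scn8a 2.38-fold and Scn3b 1.60-fold lower in BNST than in dStr. Scn1a, Scn2a and Scn2b, each read by its brightest probe set, did not pass in any comparison. All folds are on the scale of log2(intensity + 16), so they understate differences of dim genes. All tests came from 1 limma model over the 9 arrays, with p-values adjusted over 14208 genes and a threshold of 0.05.

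**Figure D1:**
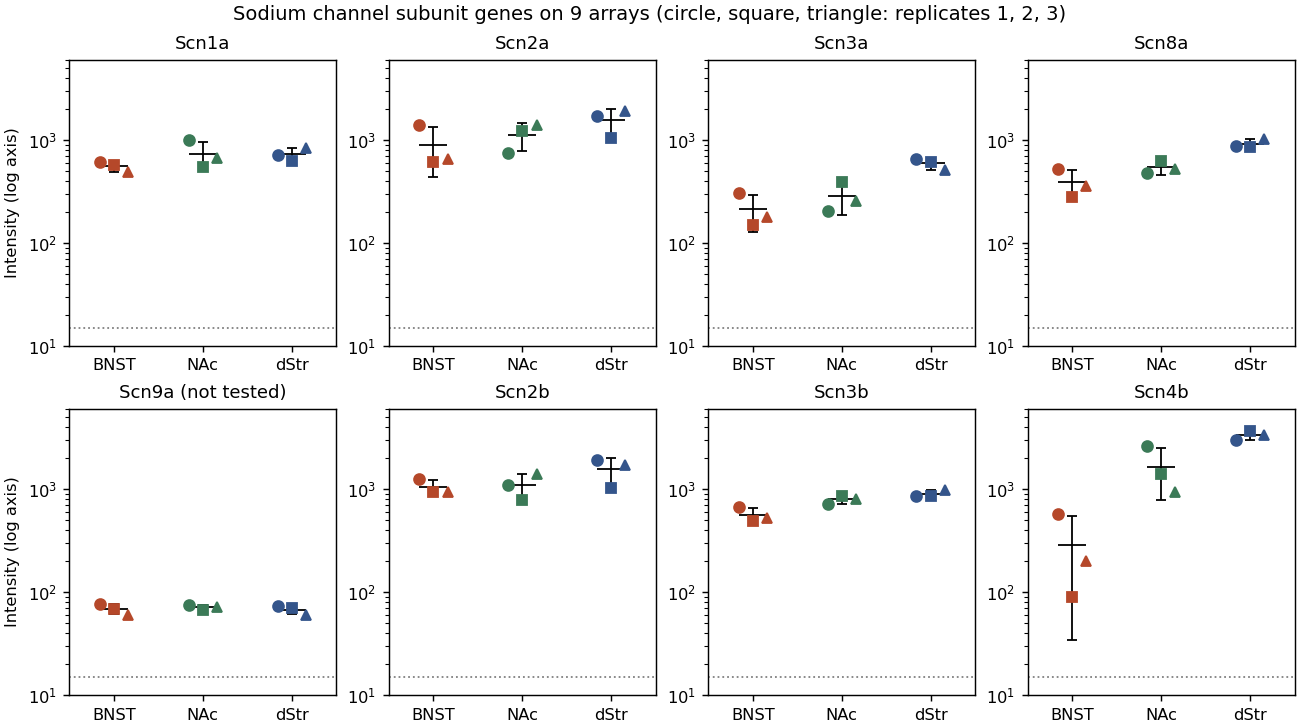
Intensity (log axis) of the 8 sodium channel subunit genes on the 9 arrays, by region, 1 probe set per gene; circles, squares and triangles are replicates 1, 2 and 3, horizontal lines the mean and bars 1 SD (n = 3), and the dotted line the floor of 14.97. Scn4b runs from 89.7 to 578 in BNST, 949 to 2625 in NAc and 3009 to 3661 in dStr, while Scn9a, which was not tested, lies near 70 in every region.

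Scn4b encodes beta-4, a subunit linked to the alpha subunit by a disulfide bond, whose cytoplasmic tail can block the open pore and so give rise to resurgent sodium current. It is known as an abundant transcript of striatal projection neurons. Its only probe set read 578, 89.7 and 202 in BNST, against 2625, 1407 and 949 in NAc and 3009, 3661 and 3347 in dStr. The regions did not overlap: every BNST array lay below every NAc array, and every NAc array below every dStr array. Means were 290 ± 256 in BNST, 1660 ± 866 in NAc and 3339 ± 326 in dStr (SD, n = 3 each), so the BNST and NAc arrays were much more spread than those of dStr. Scn4b was lower in BNST than in dStr (log2 difference -3.80, SE 0.53, 95% interval -4.99 to -2.62, adjusted p = 0.00115). It was also lower in BNST than in NAc (-2.68, SE 0.53, 95% interval -3.87 to -1.50, adjusted p = 0.0309). NAc and dStr, neighbours in the order of levels, did not differ past the threshold (-1.12, SE 0.53, adjusted p = 0.414).

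The difference of Scn4b between BNST and dStr passed in each of the 21 other settings of processing or sample choice, between -4.46 and -3.22. The difference from NAc was less stable and missed the threshold in 9 of 21. These were without BNST 2 (-2.09, adjusted p = 0.0793), without BNST 3 (-2.62, 0.135), without NAc 1 (-2.29, 0.0606) and without NAc 2 (-2.74, 0.109). The others, all at -2.68, were without dStr 1 (0.0647), dStr 2 (0.064) or dStr 3 (0.0616), with no filter on low values (0.0767) and with the 6 arrays of the pair alone (0.133). Without BNST 1 the difference was -3.34 (adjusted p = 0.00203). Without BNST 1 and NAc 1 together, Scn4b was lower in BNST than in NAc (-2.95, adjusted p = 0.00032) and lower in NAc than in dStr (-1.51, adjusted p = 0.00897). These 2 arrays stood apart in these same data and held the highest Scn4b values of their regions, so that fit is no independent support. All genes called rose in it from 318 to 2203 for BNST against NAc and from 291 to 707 for NAc against dStr. In these bulk samples, fewer cells that express a gene and less of its RNA per cell cannot be told apart.

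Scn2b, the neighbouring gene of Scn4b in the RefSeq order of protein-coding genes, encodes beta-2, the other disulfide-linked subunit. Its brightest probe set read 1254, 946 and 933 in BNST, against 1106, 792 and 1417 in NAc and 1913, 1025 and 1728 in dStr, and the regions overlapped. Means were 1044 ± 182 in BNST, 1105 ± 313 in NAc and 1555 ± 468 in dStr, and no pair passed: the log2 difference was -0.06 for BNST against NAc (SE 0.27, adjusted p = 0.970), -0.53 for BNST against dStr (SE 0.27, 0.219) and -0.48 for NAc against dStr (SE 0.27, 0.505). A second Scn2b probe set, 1436134_at, gave another picture, with 696, 463 and 492 in BNST, against 666, 845 and 835 in NAc and 1292, 1232 and 1504 in dStr. There, all BNST and all NAc arrays lay below all dStr arrays. In the fit over 29293 probe sets it was lower in BNST than in dStr (-1.28, SE 0.18, adjusted p = 0.00143), and it missed the threshold for NAc against dStr (-0.77, SE 0.18, adjusted p = 0.0708). The third Scn2b probe set, 1457144_at, was dim, at 79.5 to 118 on the 9 arrays, with a difference of -0.17 for BNST against dStr (SE 0.15, adjusted p = 0.510).

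Scn3b encodes beta-3, which binds the alpha subunit without a disulfide bond. It read 675, 491 and 520 in BNST, against 720, 867 and 802 in NAc and 855, 866 and 983 in dStr. All BNST arrays lay below all arrays of the other 2 regions, while NAc and dStr overlapped. Means were 562 ± 99.0 in BNST, 797 ± 73.8 in NAc and 901 ± 71.2 in dStr. Scn3b was lower in BNST than in dStr (-0.68, SE 0.15, 95% interval -1.01 to -0.34, adjusted p = 0.0135), but not past the threshold against NAc (-0.50, SE 0.15, adjusted p = 0.141), nor was NAc against dStr (-0.18, SE 0.15, adjusted p = 0.688). The call against dStr missed the threshold without BNST 2 (adjusted p = 0.0623), without BNST 3 (0.0663) or without dStr 3 (0.0649). Its other probe set, 1426328_a_at, read 18.5 to 45.8 and was left out by the filter on low values.

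Scn8a encodes Nav1.6, the main alpha subunit of the distal axon initial segment and mature nodes of Ranvier, known for its persistent and resurgent current. Its brightest probe set read 526, 280 and 361 in BNST, against 475, 632 and 521 in NAc and 884, 854 and 1031 in dStr. Every BNST and every NAc array lay below every dStr array, while BNST 1 lay within the range of NAc. Means were 389 ± 126 in BNST, 543 ± 80.8 in NAc and 923 ± 94.8 in dStr. Scn8a was lower in BNST than in dStr (-1.25, SE 0.21, 95% interval -1.72 to -0.78, adjusted p = 0.00332). The differences of BNST from NAc (-0.50, SE 0.21, adjusted p = 0.353) and of NAc from dStr (-0.75, SE 0.21, adjusted p = 0.127) did not pass.

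Scn8a had 5 tested probe sets, and they did not move together. Probe set 1457412_at read 449, 210 and 226 in BNST, against 280, 511 and 448 in NAc and 750, 689 and 723 in dStr, and was lower in BNST than in dStr (-1.32, SE 0.28, adjusted p = 0.0126). Probe set 1439889_at read 289, 199 and 241 in BNST, against 543, 388 and 293 in NAc and 591, 667 and 640 in dStr, and was lower too (-1.34, SE 0.21, adjusted p = 0.00282). In both, all dStr arrays lay above all others, as for the brightest. Probe set 1451894_a_at, at 76.5 to 119 on the 9 arrays, did not differ past the threshold (-0.03, SE 0.16, adjusted p = 0.926). Probe set 1442208_at went the other way, with 154, 181 and 195 in BNST, against 171, 135 and 149 in NAc and 119, 148 and 99.9 in dStr. Its BNST arrays all lay above its dStr arrays, and its difference missed the threshold (0.49, SE 0.16, adjusted p = 0.0764). The files do not say which stretch of the transcript each probe set reads.

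Scn3a encodes Nav1.3, an alpha subunit that in rodents is abundant in the embryonic brain and declines after birth. It read 307, 151 and 178 in BNST, against 205, 391 and 256 in NAc and 657, 615 and 508 in dStr. The dStr arrays lay above all others, while BNST and NAc overlapped, with BNST 1 above NAc 1 and NAc 3. Means were 212 ± 83.5 in BNST, 284 ± 96.0 in NAc and 593 ± 77.2 in dStr. Scn3a was lower in BNST than in dStr (-1.47, SE 0.27, 95% interval -2.07 to -0.86, adjusted p = 0.00544). The log2 difference was -1.06 for NAc against dStr (SE 0.27, adjusted p = 0.0949) and -0.41 for BNST against NAc (SE 0.27, adjusted p = 0.634), and neither passed. The other Scn3a probe set, 1421705_at, read 35.8 to 66.4 on the 9 arrays, with the regions overlapping, and was left out by the filter on low values.

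Scn1a encodes Nav1.1, the alpha subunit of fast-spiking interneurons whose loss of function causes Dravet syndrome in humans. Its brightest probe set read 616, 570 and 485 in BNST, against 993, 553 and 672 in NAc and 722, 627 and 835 in dStr. Means were 557 ± 66.5 in BNST, 739 ± 228 in NAc and 728 ± 104 in dStr. The BNST arrays lay below the dStr arrays without overlap, by a margin too small to pass (-0.37, SE 0.21, 95% interval -0.84 to 0.09, adjusted p = 0.272). Neither BNST against NAc (-0.36, SE 0.21, adjusted p = 0.557) nor NAc against dStr (-0.01, SE 0.21, adjusted p = 0.992) passed, and NAc 1 was the highest array of all. The second probe set, 1450121_at, read 232, 172 and 172 in BNST, against 331, 291 and 299 in NAc and 395, 453 and 411 in dStr, so that no region overlapped another. It was lower in BNST than in dStr (-1.08, SE 0.15, adjusted p = 0.00118) and missed the threshold against NAc (-0.65, SE 0.15, adjusted p = 0.0592). The third, 1441728_at, read 48.9 to 70.1 in BNST, 67.7 to 92.8 in NAc and 89.9 to 113 in dStr, and was also lower in BNST than in dStr (-0.62, SE 0.16, adjusted p = 0.0286). Scn1a was thus not called by its brightest probe set, while both of its dimmer ones passed between BNST and dStr.

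Scn2a encodes Nav1.2, the alpha subunit of the proximal axon initial segment and of unmyelinated axons. Its brightest probe set read 1404, 611 and 650 in BNST, against 750, 1219 and 1398 in NAc and 1712, 1051 and 1925 in dStr. BNST 1 lay well above BNST 2 and BNST 3, above all 3 NAc arrays and within the range of dStr, so the regions overlapped. Means were 888 ± 447 in BNST, 1122 ± 334 in NAc and 1563 ± 456 in dStr. The log2 difference was -0.39 for BNST against NAc (SE 0.35, adjusted p = 0.761), -0.86 for BNST against dStr (SE 0.35, adjusted p = 0.133) and -0.47 for NAc against dStr (SE 0.35, adjusted p = 0.635). Without BNST 1, Scn2a was lower in BNST than in dStr (-1.24, adjusted p = 0.0178). In that fit 13.5% of all genes were lower in BNST than in dStr, against 9.33% with all arrays. Probe set 1427280_at read 721, 461 and 440 in BNST, against 1028, 736 and 763 in NAc and 869, 694 and 900 in dStr, and missed the threshold for BNST against dStr (-0.61, SE 0.21, adjusted p = 0.0864). Probe set 1427281_at, dimmer at 79.3 to 106 in BNST, 88.6 to 117 in NAc and 125 to 146 in dStr, had all BNST and all NAc arrays below all dStr arrays and also missed it (-0.49, SE 0.15, adjusted p = 0.0527). The fourth Scn2a probe set, 1445259_at, read 40.1 to 84.2 on the 9 arrays and was left out by the filter on low values. The 3 tested probe sets of Scn2a thus had lower means in BNST than in dStr without passing.

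Scn9a encodes Nav1.7, the alpha subunit of peripheral sensory and sympathetic neurons. All 5 of its probe sets were left out by the filter, which kept those above the 40th percentile of at least 3 arrays. The brightest read 76.2, 69.2 and 60.4 in BNST, against 74.7, 67.0 and 72.3 in NAc and 72.5, 69.9 and 59.95 in dStr, with the 3 regions overlapping. Another Scn9a probe set, 1421660_at, stood at the floor on 7 of 9 arrays. With the filter dropped, the log2 difference of the brightest probe set was -0.05 for BNST against NAc (adjusted p = 0.936), 0.02 for BNST against dStr (0.943) and 0.07 for NAc against dStr (0.852), each with an SE of 0.11.

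Several members lie next to each other in the RefSeq order of protein-coding genes: Scn3a beside Scn2a, and Scn1a beside Scn9a, on chromosome 2, and Scn2b beside Scn4b on chromosome 9. Read by the brightest probe set, Scn3a and Scn4b passed between BNST and dStr and Scn2a and Scn2b did not, with -1.47 for Scn3a beside -0.86 for Scn2a and -3.80 for Scn4b beside -0.53 for Scn2b. With the mean of the tested probe sets, Scn2a (-0.66, adjusted p = 0.048) and Scn2b (-0.66, adjusted p = 0.0113) passed as well. The differences between neighbours were not tested.

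Across the channel genes, 4 of 7 tested passed the F test over the 3 regions, against 10.3% of all genes. Between BNST and NAc, 1 of 7 was lower in BNST, Scn4b, against 1.48% of all genes, and no member was higher. By limma, 3 of 7 had an unadjusted p under 0.05 there, against 1796 of all 14208 genes. Between BNST and dStr, 4 of 7 were lower in BNST, Scn3a, Scn8a, Scn3b and Scn4b, against 9.33% of all genes. None was higher there, against 4.94% of all genes. In that comparison 5 of 7 had an unadjusted p under 0.05 (limma), against 4118 of all 14208 genes. Between NAc and dStr, 0 of 7 passed, against 1.10% of all genes lower and 0.950% higher in NAc. There 2 of 7 had an unadjusted p under 0.05 (limma), against 1860 of all 14208 genes. All 7 differences lay below 0 in each comparison, except that Scn2b turned to 0.12 for BNST against NAc after quantile normalisation, and Scn1a for NAc against dStr to 0.0252 after it and 0.0149 with arrays centred on their median, and that leaving out 1 array moved Scn2b to as much as 0.14 (without NAc 3) and Scn1a to as much as 0.17 (without NAc 2). Scn2b also turned without BNST 2 or BNST 3, and Scn1a without NAc 3 or dStr 3. The comparisons share arrays, so these are not separate observations. The median log2 difference of the 7 was -0.41 for BNST against NAc, -0.86 for BNST against dStr and -0.48 for NAc against dStr, beside -0.05, -0.06 and -0.01 for all genes.

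Counted by arrays, all 3 BNST arrays lay below all 3 NAc arrays for 2 of 7 members, against 8.85% of all genes. They lay below all 3 dStr arrays for 5 of 7, against 21.5% of all genes. The NAc arrays lay below the dStr arrays for 3 of 7, Scn3a, Scn8a and Scn4b, against 10.0% of all genes. Of the 17 tested probe sets of these genes, 1 was lower in BNST than in NAc, against 1.16% of all probe sets. Between BNST and dStr 9 of 17 were lower in BNST, against 9.31%, and between NAc and dStr 0 of 17 passed, against 0.959% lower in NAc. The probe sets of 1 gene share its transcript and are not separate observations. The plot of differences by probe set shows that Scn1a, Scn2b and Scn8a each held probe sets that passed and others that did not between BNST and dStr.

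**Figure D2:**
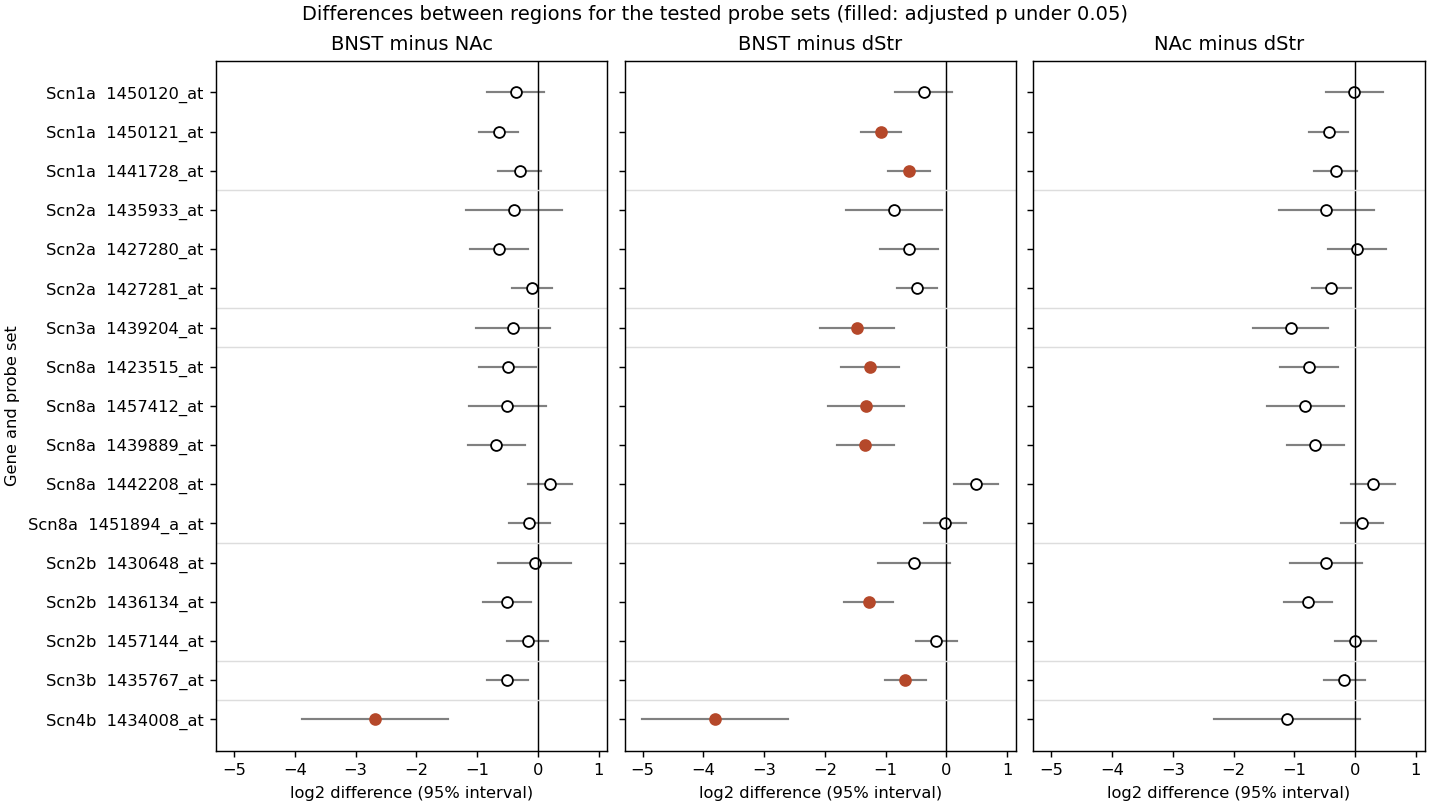
Log2 difference (x axis) with its 95% interval for each of the 17 tested probe sets (y axis, grouped by gene) for BNST minus NAc, BNST minus dStr and NAc minus dStr; filled points had an adjusted p under 0.05 in the fit over 29293 probe sets. Filled points number 1, 9 and 0 in the 3 panels, all to the left of 0, and the probe set of Scn4b lies farthest left in each.

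With the mean of a gene's tested probe sets in place of the brightest, all 7 members were lower in BNST than in dStr, against 10.4% of all genes. Scn1a then stood at -0.69 (adjusted p = 0.00246), Scn2a at -0.66 (0.048), Scn2b at -0.66 (0.0113) and Scn8a at -0.69 (0.00487). The array BNST 1 was the highest of the 3 BNST arrays for 7 of the 7 genes. Without BNST 1 and NAc 1 together, 5 members were lower in BNST than in NAc, among them Scn2a (-1.03, adjusted p = 0.0193), Scn3a (-0.89, 0.0184), Scn8a (-0.82, 0.0129) and Scn3b (-0.71, 0.0109). Calls rose across the array in that fit, where 13% of all genes were lower in BNST than in NAc, against 1.48% with all arrays. In the same fit Scn3a (-0.86, adjusted p = 0.0269) and Scn8a (-0.67, 0.0434) were lower in NAc than in dStr, as was Scn4b, against 2.4% of all genes. Without BNST 1 alone, Scn3b was lower in BNST than in NAc (-0.64, adjusted p = 0.0388), and Scn3a (adjusted p = 0.032) and Scn8a (0.0379) were lower in NAc than in dStr. In that fit 3.43% of all genes were lower in BNST than in NAc, against 1.48% with all arrays. Lower in NAc than in dStr were 1.66%, against 1.10%. Both arrays stood apart in these same data, so these fits are no independent support. The summed projection neuron markers were likewise highest on BNST 1 within BNST, and their part in the channel differences was not tested.

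Promoter windows from 250 bases before to 50 after the transcription start, from RefSeq on GRCm38.p6, were found for 6 of the 8 genes. Scn4b and Scn2b are neighbours that encode related subunits. Between BNST and dStr Scn4b passed, while Scn2b passed by its second probe set but not by its brightest. The difference between these neighbours was not tested. Scn8a is the alpha subunit that passed by 3 probe sets. Windows of Scn4b, Scn2b and Scn8a are shown. All are on the plus strand, at chr9:45138374-45138673 for Scn4b, chr9:45117626-45117925 for Scn2b and chr15:100870395-100870694 for the first of 2 Scn8a windows. Capitals mark CG dinucleotides.
Scn4b: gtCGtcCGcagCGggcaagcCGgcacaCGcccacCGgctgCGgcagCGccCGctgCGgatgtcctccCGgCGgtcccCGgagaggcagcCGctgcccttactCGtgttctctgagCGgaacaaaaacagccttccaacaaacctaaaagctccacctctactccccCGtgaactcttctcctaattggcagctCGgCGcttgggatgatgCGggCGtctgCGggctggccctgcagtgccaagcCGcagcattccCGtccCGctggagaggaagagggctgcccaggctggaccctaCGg
Scn2b: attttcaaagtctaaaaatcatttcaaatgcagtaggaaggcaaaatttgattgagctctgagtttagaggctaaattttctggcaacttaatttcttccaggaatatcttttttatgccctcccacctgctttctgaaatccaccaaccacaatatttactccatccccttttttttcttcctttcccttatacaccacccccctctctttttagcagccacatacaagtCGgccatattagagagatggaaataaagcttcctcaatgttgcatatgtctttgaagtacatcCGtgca
Scn8a: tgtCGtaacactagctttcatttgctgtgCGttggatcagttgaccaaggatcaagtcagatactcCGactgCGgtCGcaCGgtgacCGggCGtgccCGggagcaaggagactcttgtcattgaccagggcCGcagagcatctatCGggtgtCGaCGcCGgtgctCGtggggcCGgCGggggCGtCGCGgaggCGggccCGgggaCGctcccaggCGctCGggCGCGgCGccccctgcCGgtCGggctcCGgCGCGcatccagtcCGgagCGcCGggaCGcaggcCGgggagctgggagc
The Scn4b window held 26 CG dinucleotides at 66.3% G and C, and 83.1% of the 32851 RefSeq windows held fewer. The Scn2b window held 2 CG at 38.3% G and C, with fewer in 14.1% of windows, and the printed Scn8a window held 38 CG at 70.0% G and C. The second Scn8a window, which is not printed, held 12 CG at 53.3% G and C. The median window had 7 CG and 52.7% G and C. On either strand, TATAAA occurred in 13.6% of all windows, GGGCGG in 35.7%, CCAAT in 37.4% and TGACG in 20.8%. The Scn4b window held 1 of these, a CCAAT on the minus strand, and the Scn2b and Scn8a windows printed here held none. These letter counts describe the windows and were not set against the array values.

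Of 7 other listed genes of the channel family, 4 were measured, and Scn7a and Nalcn were tested. Neither passed in a comparison, and none of their differences had an unadjusted p under 0.05 (limma). Nalcn, a sodium leak channel that is not gated by voltage in the usual way, averaged 665 ± 74.0 in BNST, 764 ± 103 in NAc and 792 ± 39.9 in dStr. Scn7a, a sodium-sensing relative, averaged 80.1 ± 8.1 in BNST, 65.7 ± 9.0 in NAc and 74.6 ± 6.9 in dStr. Scn10a and Scn11a were left out by the filter on low values. Scn11a read 68.3 to 71.9 in BNST, 45.6 to 68.6 in NAc and 43.1 to 45.8 in dStr, so its BNST arrays lay above its dStr arrays. Scn10a stood at the floor on 4 of 9 arrays.

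Of 14 tested genes of the axon initial segment and node scaffold, 3 were lower in BNST than in dStr and none was higher, against 9.33% lower and 4.94% higher of all genes. Ank3, which encodes ankyrin-G, the anchor of sodium channels at the initial segment, averaged 704 ± 331 in BNST and 1687 ± 184 in dStr (-1.33, SE 0.38, adjusted p = 0.0424). Its call ended in 8 of 21 other settings, among them without any 1 of BNST 2, BNST 3, NAc 2 and the 3 dStr arrays. Sptbn4, beta-IV spectrin, averaged 396 ± 14.4 in BNST and 844 ± 72.1 in dStr (-1.06, SE 0.20, adjusted p = 0.00525). Nrcam, a cell adhesion molecule of nodes and initial segments, averaged 549 ± 95.7 in BNST and 990 ± 80.6 in dStr (-0.84, SE 0.15, adjusted p = 0.0051). The median log2 difference of the 14 was -0.18 for BNST against dStr, beside -0.06 for all genes. Between BNST and NAc 0 of 14 passed, against 1.48% of all genes lower and 0.76% higher in BNST. Between NAc and dStr 0 of 14 passed, against 1.10% of all genes lower and 0.950% higher in NAc. By limma, 2 of 14 had an unadjusted p under 0.05 between BNST and NAc, against 1796 of all 14208 genes. Between NAc and dStr 4 of 14 had one, against 1860 of all 14208 genes.

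A list drawn up for sodium channel interaction and trafficking was broad and also held Dpp6 and Dpp10, genes of potassium channels. Of its 27 tested genes, 4 were lower and 4 higher in BNST than in dStr, against 9.33% lower and 4.94% higher of all genes. Among the lower ones were 3 of the 4 intracellular fibroblast growth factor homologous factors, which bind the channel's cytoplasmic C terminus. Fgf11 averaged 55.7 ± 20.0 in BNST, 173 ± 31.9 in NAc and 237 ± 44.6 in dStr, and was lower in BNST than in dStr (-1.84, SE 0.22, adjusted p = 0.000517) and than in NAc (-1.42, SE 0.22, adjusted p = 0.0106). With the mean of its probe sets Fgf11 passed in neither (-0.47, adjusted p = 0.0621 against dStr; -0.47, 0.168 against NAc), and the call against NAc also ended without BNST 3 (0.0579), without NAc 2 (0.0618) and with the 6 arrays of the pair alone (0.052). Fgf14 averaged 543 ± 128 in BNST, 986 ± 194 in NAc and 1162 ± 101 in dStr, and was lower in BNST than in dStr (-1.10, SE 0.19, adjusted p = 0.00405). Fgf13 averaged 680 ± 233 in BNST and 1233 ± 152 in dStr (-0.89, SE 0.22, adjusted p = 0.0207), a call that ended without BNST 2 (0.0835), BNST 3 (0.0918), dStr 2 (0.0755) or dStr 3 (0.0749). Fgf12, the fourth of them, averaged 393 ± 60.9 in BNST and 312 ± 27.2 in dStr and did not pass (0.31, SE 0.18, adjusted p = 0.284).

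Nedd4l, a ubiquitin ligase that takes sodium channels off the membrane, averaged 206 ± 152 in BNST and 1050 ± 143 in dStr, and was lower in BNST (-2.49, SE 0.49, adjusted p = 0.00739). The 4 genes higher in BNST than in dStr came from the same list, on which 16 of 27 differences lay above 0 and 11 below. Dpp6 (1.29, SE 0.21, adjusted p = 0.0027) and Dpp10 (0.89, adjusted p = 0.0079) encode auxiliary subunits of Kv4 potassium channels. Gja1 (0.86, adjusted p = 0.00397), connexin 43, is a gap junction gene of astrocytes, and Ptprz1 (0.60, adjusted p = 0.0478) a receptor phosphatase of glia. Dpp6 did not pass with the mean of its probe sets (0.44, adjusted p = 0.251), and the call of Ptprz1 ended in 12 of 21 other settings. Between NAc and dStr 2 of 27 were higher in NAc, against 0.950% of all genes. They were Dpp10 (0.97, adjusted p = 0.0195) and Ncs1 (1.06, adjusted p = 0.0199), a neuronal calcium sensor. The call of Dpp10 ended without NAc 2 (0.0673), dStr 2 (0.0683) or dStr 3 (0.0785), and that of Ncs1 without dStr 1 (0.0798), dStr 2 (0.0947) or dStr 3 (0.0826) and with the mean of its probe sets (0.32, 0.184). The median of the 27, with Dpp6 and Dpp10 among them, was 0.12 for BNST against dStr, on the other side of 0 from the channel subunits.

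**Figure D3:**
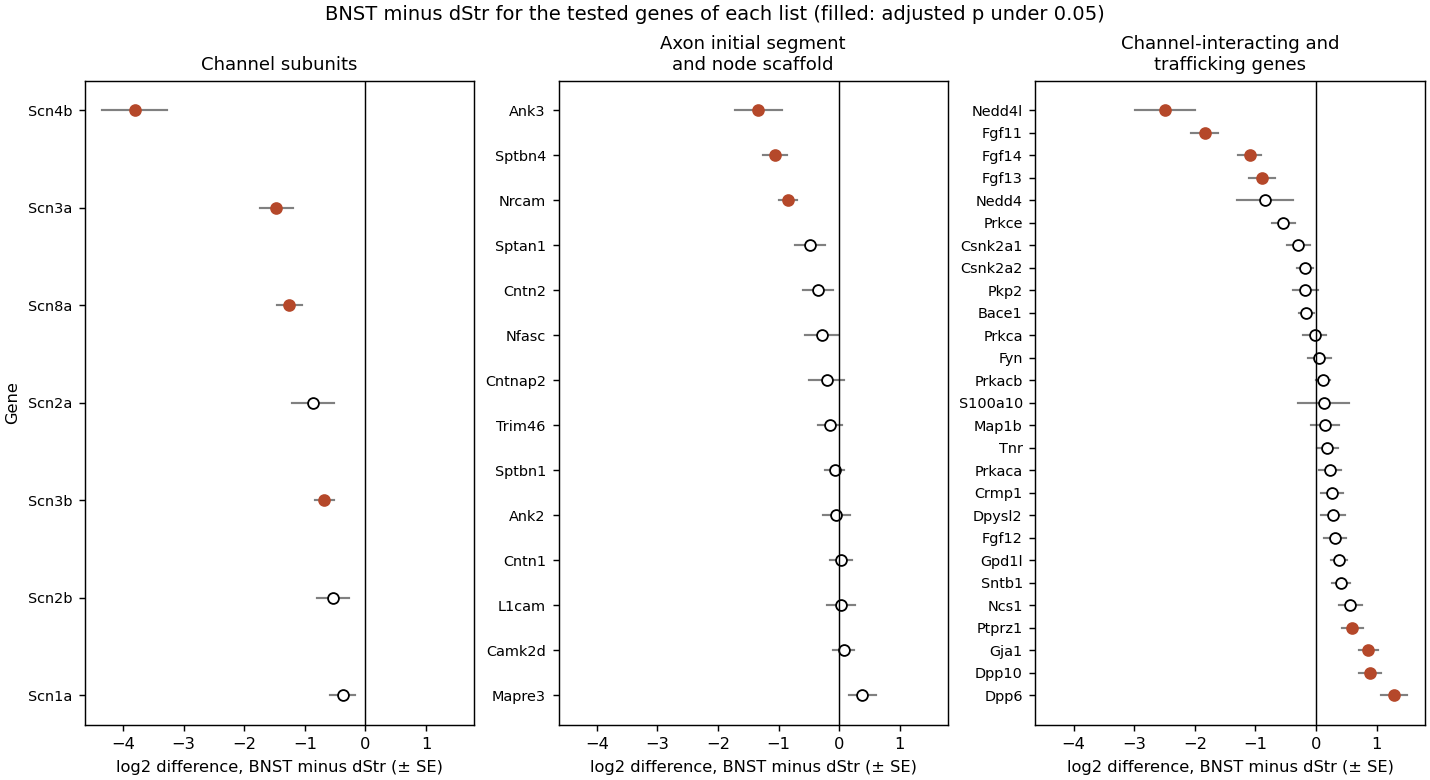
Log2 difference, BNST minus dStr, with its SE (x axis) for the tested genes (y axis) of the channel subunits, the axon initial segment and node scaffold, and the channel-interacting and trafficking genes; filled points had an adjusted p under 0.05 over 14208 genes. All 7 subunits lie to the left of 0, as they did after quantile normalisation and after centring, with 4 filled. To the left of 0 lie 10 of 14 scaffold genes, with 3 filled. So do 11 of 27 genes of the third list, which includes the potassium channel genes Dpp6 and Dpp10, with 4 filled on each side.

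The genes whose profile over the 9 arrays was most like that of each subunit were found among the 1457 other genes that passed the F test, by the root mean square difference of log2 values centred on the gene's mean. For Scn4b, whose own values spread by 1.74 around their mean on that measure, they were Gpr6 (0.467), Drd1 (0.490), Pde10a (0.509), Lpl (0.584) and Rarb (0.596). Gpr6 (an orphan receptor), Drd1 (a dopamine receptor) and Pde10a (a cyclic nucleotide phosphodiesterase) belong to the projection neuron list. Pde10a averaged 651 in BNST, 2264 in NAc and 4085 in dStr, and Drd1 314 in BNST, 1504 in NAc and 1902 in dStr. Like Scn4b, all 5 were lowest on BNST 2 within BNST and lowest on NAc 3 within NAc, which their choice on these 9 arrays largely fixed. Lpl encodes lipoprotein lipase and Rarb a retinoic acid receptor. Hivep2 (0.145) was nearest to Scn3a, Plppr5 (0.115) to Scn8a and Stard3 (0.0693) to Scn3b, whose own spreads were 0.701, 0.568 and 0.319.

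**Figure D4:**
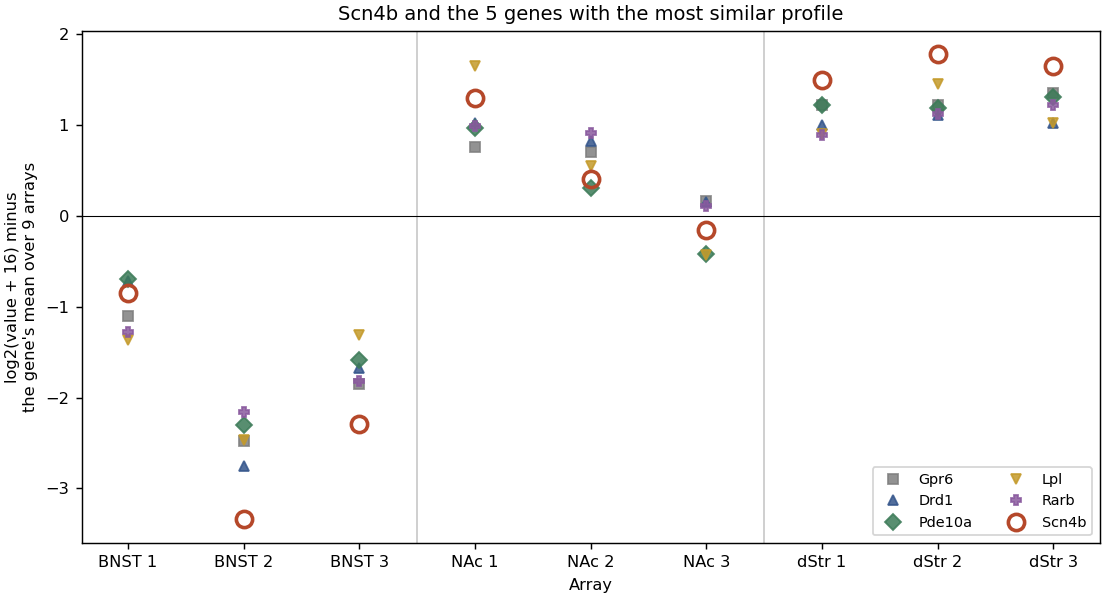
Log2(intensity + 16) minus the gene's mean over 9 arrays (y axis) on each array (x axis) for Scn4b (open circles) and the 5 genes most like it. Scn4b lies lowest on BNST 2, where its intensity is 89.7, and highest on dStr 2, where it is 3661, and the other 5 genes, chosen for likeness over these arrays, also lie lowest on BNST 2.

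Markers of cell types moved with these differences to unequal degrees, and their part in the channel results was not tested. Of the 12 tested projection neuron markers, 11 were lower in BNST than in dStr, against 9.33% of all genes, and 9 lower than in NAc, against 1.48%. Between NAc and dStr 3 were lower and 1 higher in NAc, against 1.10% and 0.950% of all genes. The log2 difference of BNST from dStr was -2.66 (SE 0.21) for the dopamine receptor gene Drd2 and -3.05 (SE 0.39) for Ppp1r1b, which encodes DARPP-32, beside -3.80 for Scn4b. Across the 12 it ran from -3.13 for Rasd2 to -0.17 for Pdyn, which did not pass, with a median of -2.69. The 9 general neuronal markers summed to 11527 to 13809 in BNST, 12947 to 17086 in NAc and 13520 to 14759 in dStr. Of these 9, Stmn2 was higher (1.41, adjusted p = 0.00134) and Rbfox3 (-0.68) and Snap25 (-0.57) lower in BNST than in dStr. The shares of all genes were 4.94% higher and 9.33% lower. Interneuron markers summed to 2133 to 2486 in BNST, 1544 to 2765 in NAc and 2159 to 3037 in dStr. Of 8 tested, 1 (Kit) was lower in BNST than in dStr (-1.01), against 9.33% of all genes.

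Among glial lists, 4 of 8 tested astrocyte markers were higher in BNST than in dStr, against 4.94% of all genes. The astrocyte markers summed to 11256 to 12717 in BNST, 8761 to 9074 in NAc and 7696 to 8107 in dStr. Of 6 tested microglial markers 4 were lower in BNST than in dStr, against 9.33% of all genes. Oligodendrocyte markers summed to 15355 to 17357 in BNST, 12990 to 17745 in NAc and 15453 to 17200 in dStr, and 0 of 7 passed in any comparison (limma; none had an unadjusted p under 0.05). Ependymal and choroid plexus genes summed to 1397 to 4753 in BNST, against 189 to 212 in NAc and 182 to 186 in dStr, where Otx2 stood at the floor on all arrays. Of the 5 measured genes of the cortical excitatory list, Neurod6 stood at the floor on 8 of 9 arrays and Tbr1 on 7. Neurod2, the 1 that was tested, averaged 244 ± 38.8 in BNST, 221 ± 26.1 in NAc and 208 ± 12.4 in dStr, and Slc17a7 averaged 54.4 in BNST, 45.2 in NAc and 48.6 in dStr, with no array of either gene at the floor. Of 5 thalamic markers, Slc17a6 (2.11, adjusted p = 0.000412 against dStr; 1.83, 0.00523 against NAc) and Prkcd (1.18, 0.000299 against dStr; 1.20, 0.00175 against NAc) were higher in BNST. The summed thalamic markers overlapped, at 2201 to 2822 in BNST, 1954 to 2662 in NAc and 2234 to 3025 in dStr.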

How the data were processed

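The members and gene lists were chosen with earlier results of these data known. Per the labels, total RNA from tissue punches was amplified, labelled with biotin and read on Mouse430_2 arrays (Affymetrix). The values deposited by the authors are linear intensities of 45037 probe sets on 9 arrays, with summarisation and scaling not given in the sources used here. The platform annotation gave 1 symbol for 34945 probe sets, several for 932 and none for 9160, and matching 34741 by Entrez identifier changed 0 symbols. Values were tested as log2(intensity + 16). A probe set was tested where at least 3 of 9 arrays exceeded their array's 40th percentile (29293), and the brightest such probe set stood for its gene (14208 genes). One linear model over 9 arrays, with a mean per region and 6 residual degrees of freedom, was fitted with limma 3.58.1 in R 4.3.3, with moderated 2-sided tests and Benjamini-Hochberg adjustment over all genes, or over all kept probe sets where a probe set is named by its identifier. The named genes are all members, list genes that passed in a comparison, and the 5 genes most like each member that passed the F test. The exceptions Fgf12, Scn7a, Nalcn, Scn10a, Scn11a, Esr1, Neurod2, Neurod6, Tbr1, Slc17a7, Tcf7l2, Lef1 and Rora were named after their values were seen. Alternatives were other scalings, filters, probe-set rules, pseudocounts of 1 and 64, a trend and robust prior, a replicate block, the pair alone, leaving out arrays and a minimum log2 difference of 1. The number of arrays limits the precision.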

Additional observations from a re-analysis of the deposited data

How the results depend on the processing

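Over 65 single results and 842 combinations with another setting, 765 kept direction and side of the threshold, 50 lost the call, 16 gained it and 11 turned. The turned ones were near 0 and never called: Scn2b for BNST against NAc was 0.12 after quantile normalisation and -0.27 to 0.14 when 1 array was left out, Scn8a 1451894_a_at for BNST against dStr was 0.0263 after quantile normalisation and 0.0277 with arrays centred on their median, and Scn1a for NAc against dStr was 0.0252 after quantile normalisation, 0.0149 after centring and -0.24 to 0.17 when 1 array was left out. Channel genes called between BNST and NAc (1) numbered 0 without the filter, 0 with the pair alone, 5 without BNST 1 and NAc 1 together and 0 to 2 when 1 array was left out. Those between BNST and dStr (4) numbered 7 with the mean of probe sets and 3 to 5 when 1 array was left out. Between NAc and dStr (0) they numbered 3 without BNST 1 and NAc 1 and 0 to 2 when 1 array was left out, and in the F test (4) 2 to 4. Probe sets called numbered 0 for BNST against NAc without the filter (1 with it), and 1 for NAc against dStr after quantile normalisation (0 before).

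All genes called numbered 318 for BNST against NAc, 2027 for BNST against dStr, 291 for NAc against dStr and 1461 in the F test. With 1 array left out these ranged from 101 to 617, 1112 to 2674, 112 to 419 and 740 to 1962. Without BNST 1 and NAc 1 they were 2203, 4150, 707 and 3686, and with the pair alone 71 for BNST against NAc. With a log2 difference of at least 1 they were 866 for BNST against dStr and 175 for NAc against dStr. Quantile normalisation moved the median difference between BNST and dStr by 0.117. The genes called were then 1267 higher and 1165 lower in BNST than in dStr, beside 702 and 1325 as deposited, and 200 higher and 235 lower in BNST than in NAc, beside 108 and 210.

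Same-numbered replicates did not deviate together (correlations of -0.460 to 0.210). These are deviations from means of only 3 arrays, so they cannot decide whether the numbers pair samples, and the labels do not say. The replicate block gave 196 genes for BNST against NAc, 183 for NAc against dStr and 953 in the F test, and left the channel genes called at 1, 4 and 0 in the 3 comparisons, and 3 in the F test.

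The limits are 3 arrays per region, 2 of them apart from their region's others, punches that mix cell types, and probe sets of 1 gene that disagree. The causes of the changed calls were not tested.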
